A study of Mus musculus with 18 samples.

Results

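The Schlafen genes of the mouse were followed in plasmacytoid dendritic cells (pDCs) exposed to imiquimod. The members were chosen by name, as the rows of the count table with the symbols Slfn1, Slfn2, Slfn3, Slfn4, Slfn5, Slfn8 and Slfn9, which are 7 of 54532 genes. Earlier results of these data were known when they were chosen. All 7 passed the filter on low counts, which kept 14876 genes for testing. Slfn1 and Slfn4 passed it only through their counts in the imiquimod libraries, so their calls against the vehicle follow in part from the filter. Marrow of wild-type C57BL/6 mice was cultured for 7 days with 80 ng/mL Flt3 ligand, and pDCs were enriched through the surface protein B220 to a stated purity of about 80%. Total RNA was depleted of ribosomal RNA and sequenced as directional libraries with paired reads of 75 nt. Each of the 6 groups holds 3 libraries. The groups are untreated cells at 0 h, cells with the vehicle (LAL, Limulus amebocyte lysate in the labels) at 0 h, 6 h and 16 h, and cells with 2.5 µg/mL imiquimod, an agonist of the RNA sensor TLR7, at 6 h and 16 h. At that purity the libraries are of an enriched population and not of a single cell type.

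Schlafen proteins are a mammalian family known for induction by interferon and by Toll-like receptor ligands in myeloid cells and lymphocytes. Several members bind or cleave transfer RNA and ribosomal RNA and so limit translation, and Slfn2 is known for keeping T cells and monocytes quiescent. Mouse members are sorted by length into a short group (Slfn1 and Slfn2), an intermediate group (Slfn3 and Slfn4) and a long group (Slfn5, Slfn8 and Slfn9), whose members carry a helicase-like part in addition to the core that all share. pDCs are known for secreting type I interferon after TLR7 or TLR9 is engaged.

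Library totals ran from 10609741 to 13447018 counts. Nothing in the labels ties replicate libraries to different cultures or mice, so the p-values measure the spread between these libraries only. Levels are in CPM, counts scaled to library size with the TMM factors, and a gene was called at an edgeR quasi-likelihood adjusted p (Benjamini-Hochberg over the 14876 genes) under 0.05. Libraries of a group differed beyond counting noise, with a chi-square per degree of freedom of 1.32 to 4.25 for all pairs but replicates 1 and 2 of the vehicle at 6 h, which stood farther apart at 10.5. Without either of these libraries 7 of 7 members were still called higher with imiquimod at 6 h. The TMM factors were 0.817 to 0.837 in the imiquimod libraries of 6 h and 1.01 to 1.07 in all others. Of 11 pDC markers all 11 had counts in every group, with summed levels of 8413 to 8705 CPM in the vehicle and 7368 to 7632 CPM with imiquimod at 6 h, and of 10410 to 10480 and 5317 to 5389 CPM at 16 h. Of these 11, 5 rose and 5 fell at 6 h, and 1 rose and 8 fell at 16 h. Over all genes 37.7% were called higher and 39.2% lower at 6 h, and 39.1% and 38.1% at 16 h. Markers of other cells were present too. The 9 monocyte and macrophage markers summed to 1618 to 1760 CPM in the vehicle and 253 to 260 CPM with imiquimod at 6 h, and to 2041 to 2119 and 99.8 to 116 CPM at 16 h. Most of the vehicle sum was Ccr2 (1323 CPM at 6 h). With imiquimod at 6 h Ccr2 had 71.1 CPM and Ly6c2 had 84.6 CPM. The markers split: Fcgr1, Ly6c2 and Cd14 rose at 6 h and Ccr2, Lyz2, Adgre1 and Csf1r fell. At 16 h Fcgr1 and Cd14 rose and the other 5 tested fell. The 6 cDC1 markers summed to 1241 to 1257 and 486 to 512 CPM at 6 h, and to 1070 to 1117 and 481 to 518 CPM at 16 h. The 6 cDC2 markers summed to 405 to 418 and 351 to 357 CPM at 6 h, and to 394 to 398 and 215 to 220 CPM at 16 h. Of these Irf4 rose at 6 h (123.9 and 201.6 CPM) and 5 fell. At 16 h Itgam rose and 5 fell, and Cd209a was at 0 with imiquimod. The 6 B cell markers summed to 108 to 118 and 171 to 185 CPM at 6 h and to 114 to 145 and 192 to 205 CPM at 16 h. The higher sum came from Pax5 (18.9 and 111.7 CPM at 6 h, 21.3 and 132.9 CPM at 16 h), whereas 4 of the 6 fell at 6 h and 5 of the 6 at 16 h. The 8 T and NK cell markers summed to 7.2 to 11.5 and 7.9 to 9.6 CPM at 6 h. At 16 h they summed to 8.6 to 11.2 CPM in the vehicle and 15.3 to 15.6 CPM with imiquimod. Of the 2 tested, Klrb1c rose at 6 h and Cd4 was not called. Klrb1c (0.15 and 3.01 CPM) and Cd4 (8.98 and 11.8 CPM) both rose at 16 h. Cd3d and Nkg7 were at 0 with imiquimod at 6 h and Cd3g at 16 h. The 6 neutrophil markers summed to at most 1.43 CPM in any library. Ly6g, the defining neutrophil marker, was at 0 in all but the imiquimod groups. The part of these cell types in the Schlafen results was not tested, and in bulk samples fewer cells of a type and less RNA per cell cannot be told apart.

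The 7 genes lie together on chromosome 11 of GRCm38, within 263.8 kb from 82951349 to 83215154 (GENCODE M21). All are protein-coding. From the low to the high end the order is Slfn5 (ENSMUSG00000054404.13, 82951349 to 82964840, plus strand), Slfn9 (ENSMUSG00000069793.12, 82978390 to 82991830, minus strand), Slfn8 (ENSMUSG00000035208.16, 83002158 to 83020810, minus strand), Slfn2 (ENSMUSG00000072620.3, 83065112 to 83070678, plus strand), Slfn1 (ENSMUSG00000078763.2, 83116849 to 83122670, plus strand), Slfn4 (ENSMUSG00000000204.16, 83175186 to 83190216, plus strand) and Slfn3 (ENSMUSG00000018986.10, 83191330 to 83215154, plus strand). Their exons cover 1664 bases in Slfn2, 1864 in Slfn1, 3411 in Slfn3, 3964 in Slfn4, 4091 in Slfn8, 5965 in Slfn9 and 6326 in Slfn5. Close copies can share reads. Of the 75-nt windows of each gene's annotated transcripts, 0% of those of Slfn1 occur in another gene, against 1.70% of Slfn2 (with Slfn4), 3.12% of Slfn4, 6.78% of Slfn3, 5.90% of Slfn9 and 6.99% of Slfn8. The last 2 share them with each other and with the pseudogene Slfn10-ps, and Slfn3 and Slfn4 share theirs with each other, with the pseudogene Gm11427 and with a few other genes. Values of Slfn3, Slfn4, Slfn8 and Slfn9 are therefore uncertain by reads that the authors' counting could have split, which is not given in the sources used here. The 1.53% of Slfn5 windows found elsewhere match no Schlafen gene. The antisense gene Slfn5os overlaps exons of Slfn5, and the strand setting of the counting is not given. Slfn5os itself had at most 6 counts in any library.

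All 7 members have a RefSeq promoter window (GRCm38.p6, 250 bases before to 50 after the start). Their letters are shown where a run is shared. The 4 short and intermediate members, Slfn1 to Slfn4, share the 9 bases ACTTCCTGG, at -74, -55, -42 and -73 from the start. The run is the longest that these 4 windows have in common and was picked for that. It is held, on either strand, by 277 of all 32851 windows (0.843%), a share that is therefore no test. The 4 stretches are printed 5′ to 3′ on the strand of the gene with the shared run in capitals, at chr11:83116726-83116774, chr11:83065037-83065085, chr11:83191268-83191316 and chr11:83175093-83175141 (all plus strand).
Slfn1: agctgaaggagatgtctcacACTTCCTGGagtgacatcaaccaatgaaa
Slfn2: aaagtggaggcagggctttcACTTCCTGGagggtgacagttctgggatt
Slfn3: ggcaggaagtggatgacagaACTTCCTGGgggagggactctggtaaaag
Slfn4: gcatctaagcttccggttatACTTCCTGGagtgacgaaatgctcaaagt

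The interferon-stimulated response element (ISRE), the site of interferon-activated factors, was searched as GAAANNGAAA on both strands. It occurs in 3 of the 7 members, the long ones Slfn5, Slfn8 and Slfn9, and in 3.44% of all windows. These 3 stretches are printed the same way with the match in capitals, at chr11:82951927-82951976 (plus strand), chr11:83020829-83020878 (minus strand) and chr11:82991846-82991895 (minus strand).
Slfn5: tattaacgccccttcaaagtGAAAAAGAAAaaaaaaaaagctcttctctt
Slfn8: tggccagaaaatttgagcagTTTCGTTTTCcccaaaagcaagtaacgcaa
Slfn9: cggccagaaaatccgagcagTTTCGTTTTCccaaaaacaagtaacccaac

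The matches in Slfn8 and Slfn9 are the same 10 letters on the strand opposite to the motif, 48 and 45 bases before the start (136 bases for a further start that RefSeq gives Slfn8), and their windows also share a run of 20 bases. The Slfn5 match lies 155 bases before the RefSeq start, in a stretch rich in A, and downstream of the first GENCODE start of that gene. The STAT site GAS, searched as TTCNNNGAA, occurs in none of the 7 windows and in 8.30% of all windows. The NF-kappaB site kappaB was found in Slfn1 and Slfn9 and in 4.51% of all windows. The ETS and IRF composite element GGAANNGAAA, a search added after the letters had been read, was found in Slfn2, where it overlaps the shared run, and in 2.72% of all windows. A match is a description of letters in this window, and a missing one says nothing of the factor.

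Without imiquimod the family had 3 members at high levels, 2 at low levels and 2 at or near 0. Per kb of exon, which allows levels to be compared between genes, untreated cells held Slfn8 at 23.8 ± 0.82, Slfn2 at 22.6 ± 1.34 and Slfn5 at 19.2 ± 0.18 CPM per kb (SD, n = 3). Slfn3 followed at 1.06 ± 0.071 and Slfn9 at 0.794 ± 0.063 CPM per kb. Slfn1 and Slfn4 had 0 counts in each of the 3 untreated libraries, which allows at most 0.0843 CPM over the group (3 counts, for counting error only). Among the 14162 tested genes with an annotated length, Slfn8, Slfn2 and Slfn5 stood above 88.3%, 87.6% and 84.7% of genes, and Slfn3 and Slfn9 above 21.5% and 18.4%. The libraries of Slfn8 and Slfn2 overlapped in untreated cells and in the vehicle at 0 h and 6 h, so their order is not resolved there. The order of the others held in all 4 groups without imiquimod, with no overlap between neighbours that had counts.

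No member was called between the vehicle and untreated cells at 0 h. Between the vehicle at 0 h and untreated cells, edgeR called 0 of 7 members and DESeq2 0 of 7, among 0 of 14876 genes called by edgeR. At an unadjusted p under 0.05 edgeR held 1 of the 7, Slfn1, which had 1, 2 and 0 counts in the vehicle libraries and 0 in the untreated ones, beside 708 of all genes (4.76%). The log2 differences of the 5 members with counts in both groups ran from 0.02 for Slfn5 to 0.27 for Slfn3.

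By 6 h in the vehicle 5 members were called, with small changes in opposite directions, and by 16 h Slfn2 was no longer among them. Slfn2, the quiescence regulator, had 38.6, 37.0 and 39.9 CPM in the vehicle at 0 h and 47.1, 46.5 and 52.5 CPM at 6 h. All 3 libraries of 6 h lay above all 3 of 0 h, a rise of 1.26-fold (log2 0.34, SE 0.063, edgeR adjusted p = 7.96e-06), and at 16 h the level was 39.4 ± 4.82 CPM (SD, n = 3; log2 0.03, adjusted p = 0.685 against 0 h). Slfn8, a long member, stood at 99.5 ± 4.34 CPM at 0 h, 112 ± 7.23 at 6 h and 130 ± 4.94 at 16 h (SD, n = 3). It rose by log2 0.17 at 6 h (SE 0.044, edgeR adjusted p = 0.000647) and 0.39 at 16 h (SE 0.044, adjusted p = 2.17e-12). The 2 members that rose by 6 h compare with 26.0% of all genes called higher in that comparison, and the 1 by 16 h with 28.4%. In a set of 7 genes these counts are not read as a trait of the family.

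The other 3 members with counts fell in the vehicle. Slfn5, the long member with the most counts, had 121, 123 and 126 CPM at 0 h, 86.7, 86.8 and 104 CPM at 6 h and 88.2, 96.9 and 120 CPM at 16 h. The fall was 0.42 on the log2 scale at 6 h (SE 0.097, edgeR adjusted p = 0.00263) and 0.28 at 16 h (SE 0.097, adjusted p = 0.0268), and the highest library of 16 h lay just under the lowest of 0 h. Slfn9 fell by 0.44 at 6 h (SE 0.17, adjusted p = 0.0225) and by 0.65 at 16 h (SE 0.18, adjusted p = 0.00142), from 4.93 ± 0.22 to 3.65 ± 0.98 and 3.15 ± 0.24 CPM (SD, n = 3). Slfn3 fell by 0.42 at 6 h (SE 0.17, adjusted p = 0.0356) and by 0.93 at 16 h (SE 0.20, adjusted p = 2.8e-05), from 4.36 ± 0.29 to 3.25 ± 0.48 and 2.28 ± 0.36 CPM (SD, n = 3). These 3 of 7 compare with 26.9% of genes called lower at 6 h and 30.0% at 16 h. With only 7 genes this is not read as a trait of the family either. The calls of Slfn3 and Slfn9 at 6 h and of Slfn5 at 16 h depended on single libraries. Slfn3 at 6 h lost its call without vehicle replicate 1 or 2 of 0 h or replicate 1 or 3 of 6 h (edgeR adjusted p 0.0527 to 0.191). Slfn9 at 6 h lost its call without vehicle replicate 1 or 3 of 0 h or replicate 1 or 2 of 6 h (0.0594 to 0.237). Slfn5 at 16 h lost its call without any 1 of the 3 vehicle libraries of 0 h or without replicate 1 or 2 of 16 h (0.0501 to 0.114).

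**Figure D1:**
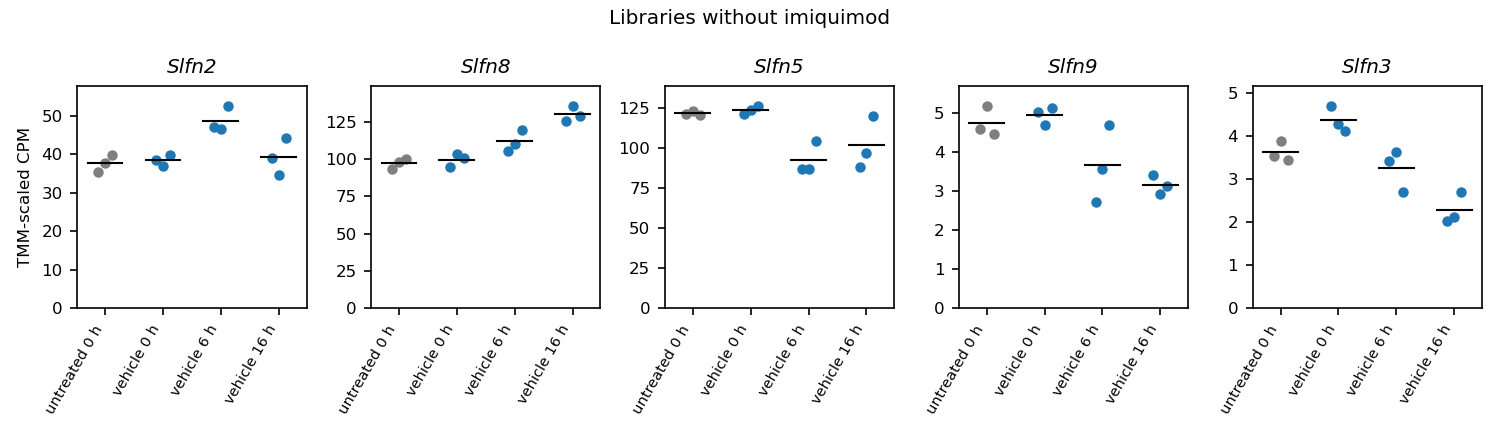
Levels of the 5 members with counts in cells without imiquimod. Each point is 1 library (y axis, TMM-scaled CPM from 0), the line is the mean of 3, and the x axis gives the group. Slfn2 and Slfn8 are higher at 6 h than at 0 h, and the means of Slfn5, Slfn9 and Slfn3 are lower.

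With imiquimod all 7 members were called higher than the vehicle at 6 h and again at 16 h. The background was large: 37.7% of all genes were called higher at 6 h and 39.1% at 16 h. The change of each member was larger than that of most genes. This is a description and not a test, since the members were chosen with earlier results of these data known. Their median log2 change was 4.53 at 6 h, against -0.04 over all tested genes, and 2.95 at 16 h, against -0.00. Both medians are the same with Slfn1 and Slfn4 placed at their lower bounds. Being tested and being called higher were not independent for Slfn1 and Slfn4, which passed the filter only through the imiquimod libraries. The smallest change at 6 h, that of Slfn8, exceeded the change of 92.9% of tested genes.

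**Figure D2:**
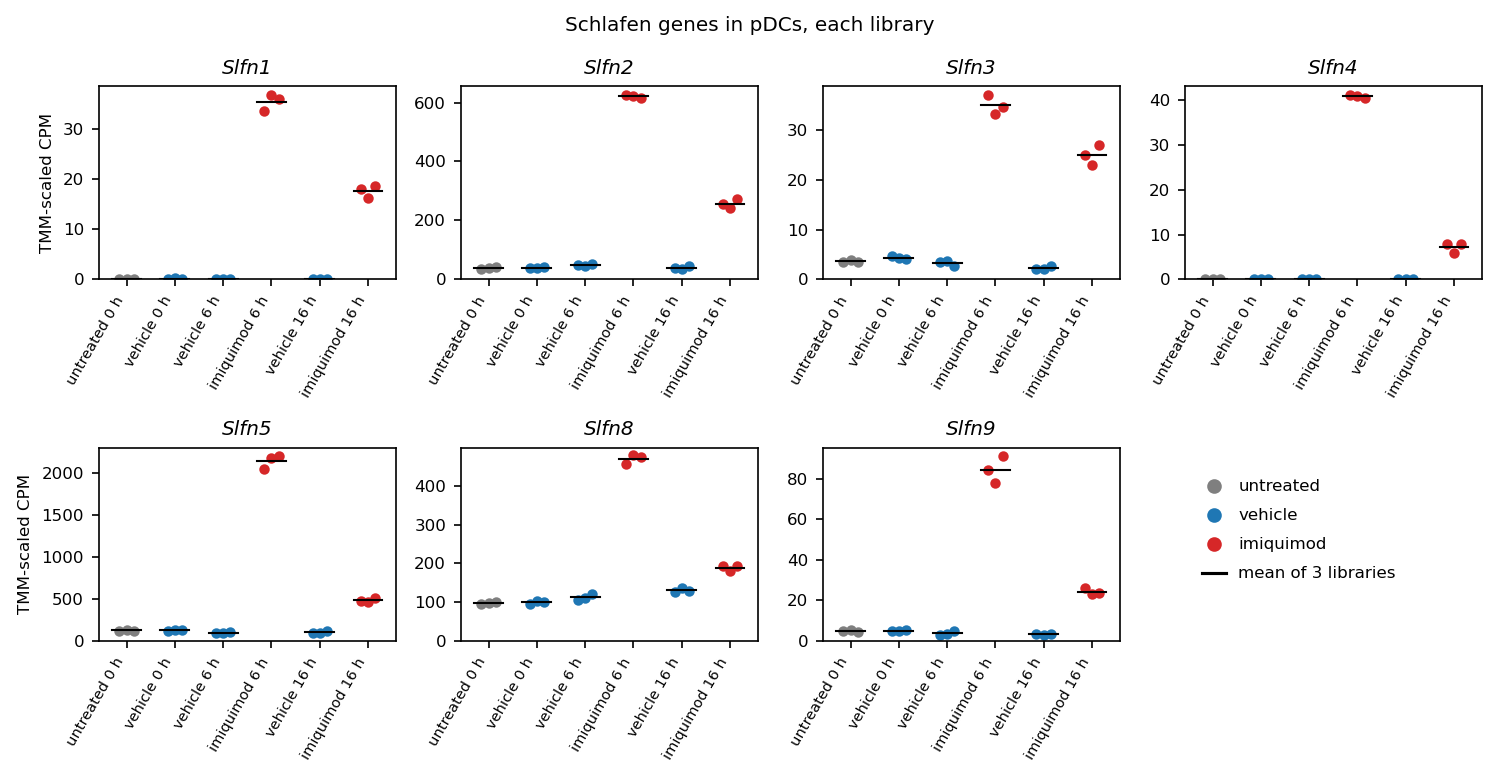
Levels of the 7 members in every library. Each point is 1 of 18 libraries (y axis, TMM-scaled CPM from 0, on a scale of its own in each panel), the line is the mean of 3, and colours mark untreated, vehicle and imiquimod groups. The imiquimod libraries of 6 h are the highest in all 7 panels and those of 16 h come next.

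The short members behaved unlike each other in resting level and alike in direction. Slfn1, known from thymocytes as a growth suppressor, went from 0 counts in all 3 vehicle libraries to 343, 380 and 368 counts with imiquimod at 6 h (33.6, 36.8 and 36.1 CPM). Against the floor of 3 counts over the vehicle group this was at least 450-fold higher (edgeR adjusted p = 1.95e-46). At 16 h it had 247, 217 and 233 counts (18.1, 16.3 and 18.7 CPM), again over 0, which was at least 198-fold higher (adjusted p = 8.89e-38). Its 3 counts in the vehicle at 0 h were the only ones outside the imiquimod groups.

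Slfn2 was already present and reached the highest level of the family per kb. It had 47.1, 46.5 and 52.5 CPM in the vehicle and 627, 623 and 617 CPM with imiquimod at 6 h, a rise of 12.8-fold (log2 3.68, SE 0.050, edgeR adjusted p = 1.04e-53). At 16 h the vehicle had 39.1, 34.7 and 44.3 CPM and imiquimod 256, 243 and 272 CPM, a rise of 6.52-fold (log2 2.70, SE 0.056, adjusted p = 3.89e-45). The imiquimod libraries of 6 h lay within 10 CPM of each other.

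The intermediate members divided in the same way. Slfn4, a gene described in macrophages and in suppressor myeloid cells of the stomach, had 0 counts in all 12 libraries without imiquimod. With imiquimod it had 420, 424 and 413 counts at 6 h (41.2, 41.1 and 40.6 CPM), at least 518.5-fold over the floor (edgeR adjusted p = 1.81e-46), and 107, 77 and 99 counts at 16 h (7.82, 5.78 and 7.93 CPM), at least 80.4-fold (adjusted p = 2.02e-26). Of the 7 tested markers of monocytes and macrophages, in which Slfn4 is known, 3 rose and 4 fell at 6 h, and 2 rose and 5 fell at 16 h. Their part in the Slfn4 result was not tested.

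Slfn3, linked in the gut to epithelial differentiation, had 3.42, 3.63 and 2.71 CPM in the vehicle and 37.2, 33.2 and 34.8 CPM with imiquimod at 6 h. The rise was 10.7-fold (log2 3.42, SE 0.14, adjusted p = 2.83e-42). At 16 h the libraries had 2.02, 2.13 and 2.70 CPM in the vehicle and 24.9, 23.1 and 27.0 CPM with imiquimod, a rise of 10.9-fold (log2 3.44, SE 0.17, adjusted p = 3.44e-38). Its mean was lower at 16 h than at 6 h both with the vehicle and with imiquimod.

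Of the long members, Slfn5 had the most counts. Known as a repressor of interferon-stimulated transcription in human cells, it had 86.7, 86.8 and 104 CPM in the vehicle and 2049, 2178 and 2195 CPM with imiquimod at 6 h, a rise of 23.2-fold (log2 4.53, SE 0.087, edgeR adjusted p = 4.07e-15). At 16 h it had 88.2, 96.9 and 120 CPM in the vehicle and 473, 460 and 505 CPM with imiquimod, a rise of 4.70-fold (log2 2.23, SE 0.089, adjusted p = 1.57e-11). Slfn9 started low and rose by as much: 2.72, 3.55 and 4.68 CPM in the vehicle became 84.6, 77.8 and 91.2 CPM at 6 h, a rise of 23.2-fold (log2 4.54, SE 0.13, adjusted p = 6.46e-56). At 16 h 3.40, 2.93 and 3.13 CPM stood beside 26.1, 23.3 and 23.6 CPM, a rise of 7.70-fold (log2 2.95, SE 0.16, adjusted p = 2.72e-35).

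Slfn8 rose least. It had 106, 111 and 120 CPM in the vehicle and 457, 480 and 474 CPM with imiquimod at 6 h, a rise of 4.20-fold (log2 2.07, SE 0.039, edgeR adjusted p = 2.97e-59). At 16 h 126, 136 and 129 CPM in the vehicle stood beside 192, 181 and 194 CPM, a rise of 1.45-fold (log2 0.54, SE 0.041, adjusted p = 1.07e-20). That change exceeded the change of 72.1% of tested genes, whereas those of Slfn2, Slfn3, Slfn5 and Slfn9 exceeded 94.6% or more.

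The 95% intervals order the estimated changes at 6 h. Slfn9 (log2 4.27 to 4.80) and Slfn5 (4.36 to 4.70) overlapped, as did Slfn2 (3.58 to 3.78) and Slfn3 (3.14 to 3.70), and Slfn8 (1.99 to 2.15) lay below all of them. At 16 h Slfn3 (3.10 to 3.78) had the highest interval, which overlapped that of Slfn9 (2.64 to 3.25) and not that of Slfn2 (2.60 to 2.81), and Slfn5 (2.06 to 2.41) and Slfn8 (0.46 to 0.62) lay lower. Slfn9 and Slfn2 overlapped at 16 h.

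**Figure D3:**
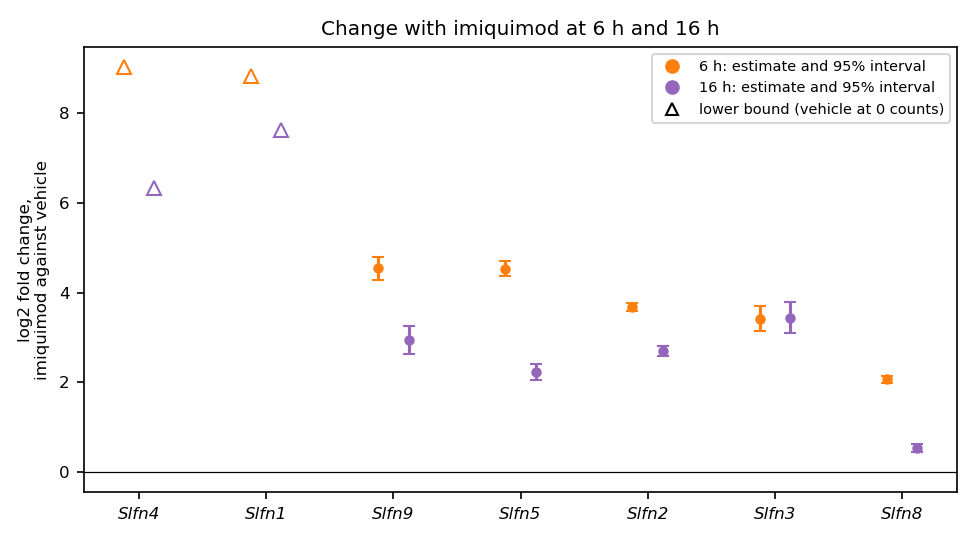
Log2 fold change of each member with imiquimod against the vehicle of the same time (y axis), with 95% intervals, at 6 h and 16 h (x axis, members). Triangles are lower bounds against a floor of 3 counts, since Slfn4 and Slfn1 had 0 counts in the vehicle. Slfn3 is the member with nearly equal values under TMM scaling, 3.42 and 3.44.

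From 6 h to 16 h in imiquimod all 7 members fell, by unequal shares. In that comparison 31.8% of all genes were called lower. Slfn4 kept 0.175 of its 6 h level (95% interval 0.151 to 0.204), Slfn5 0.224 (0.202 to 0.247), Slfn9 0.288 (0.262 to 0.317), Slfn8 0.402 (0.382 to 0.422), Slfn2 0.413 (0.391 to 0.435), Slfn1 0.498 (0.441 to 0.561) and Slfn3 0.713 (0.641 to 0.792). The intervals of Slfn4 and Slfn5 just overlapped, as did those of Slfn8 and Slfn2, and the other neighbours did not. In edgeR the adjusted p ran from 1.29e-46 for Slfn8 to 6.64e-08 for Slfn3. The median change of the members was -1.32 on the log2 scale, against 0.01 over all tested genes. The members with 0 counts in the vehicle were not alike: Slfn4 fell by 2.51 and Slfn1 by 1.01 on the log2 scale. The fall of Slfn3, 0.49 on the log2 scale, was 0.19 when the libraries were scaled by their totals in place of TMM (adjusted p = 0.0259). The intervals do not cover the choice of scaling for any member. Over the alternatives the smallest log2 change was -2.21 for Slfn4, -1.86 for Slfn5, -1.50 for Slfn9, -1.02 for Slfn8, -0.98 for Slfn2 and -0.71 for Slfn1.

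The difference between the imiquimod effects, 16 h minus 6 h, was tested as an interaction, which allows for the course of the vehicle. It was called lower for 4 of 7 members, against 28.4% of all genes called lower. The effect was smaller at 16 h by 2.30 on the log2 scale for Slfn5 (SE 0.12, edgeR adjusted p = 1.5e-09), by 1.59 for Slfn9 (SE 0.20, adjusted p = 5.34e-10), by 1.53 for Slfn8 (SE 0.056, adjusted p = 3.61e-38) and by 0.97 for Slfn2 (SE 0.075, adjusted p = 8.79e-17). All 3 long members were among them. Slfn3 had a difference of 0.02 (95% interval -0.42 to 0.46, adjusted p = 0.944). Over the alternatives this difference ran from -0.05 to 0.36. For Slfn1 and Slfn4 the difference cannot be judged, because the vehicle had 0 counts at both times.

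The make-up of the family shifted with these changes. The summed level was 72.9 ± 5.29 CPM per kb in the vehicle at 6 h, 881 ± 13.3 with imiquimod at 6 h, 72.8 ± 4.92 in the vehicle at 16 h and 299 ± 15.2 with imiquimod at 16 h (SD, n = 3). Slfn8 made up 37.6% of the sum in the vehicle and 13.04% with imiquimod at 6 h, and 43.7% and 15.5% at 16 h. Slfn5 made up 20.1% and 38.4% at 6 h, and 22.1% and 25.3% at 16 h. Slfn2 made up 40.2% and 42.5% at 6 h, and 32.5% and 51.6% at 16 h. The 4 least abundant members, Slfn1, Slfn3, Slfn4 and Slfn9, made up the rest. Slfn2 at 374 ± 2.91 and Slfn5 at 338 ± 12.6 CPM per kb (SD, n = 3) led the family with imiquimod at 6 h, above 99.6% and 99.5% of tested genes. They did not overlap. Slfn8 (115 ± 2.91), Slfn1 (19.1 ± 0.90), Slfn9 (14.2 ± 1.12), Slfn4 (10.3 ± 0.083) and Slfn3 (10.3 ± 0.58) followed, the last 2 with overlapping libraries. With the longest transcript as the length Slfn3 came before Slfn4, at 12.4 and 10.3 CPM per kb. At 16 h the order was Slfn2 (154 ± 8.55), Slfn5 (75.7 ± 3.65), Slfn8 (46.2 ± 1.69), Slfn1 (9.48 ± 0.66), Slfn3 (7.33 ± 0.58), Slfn9 (4.08 ± 0.26) and Slfn4 (1.81 ± 0.31), with no overlap between neighbours.

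**Figure D4:**
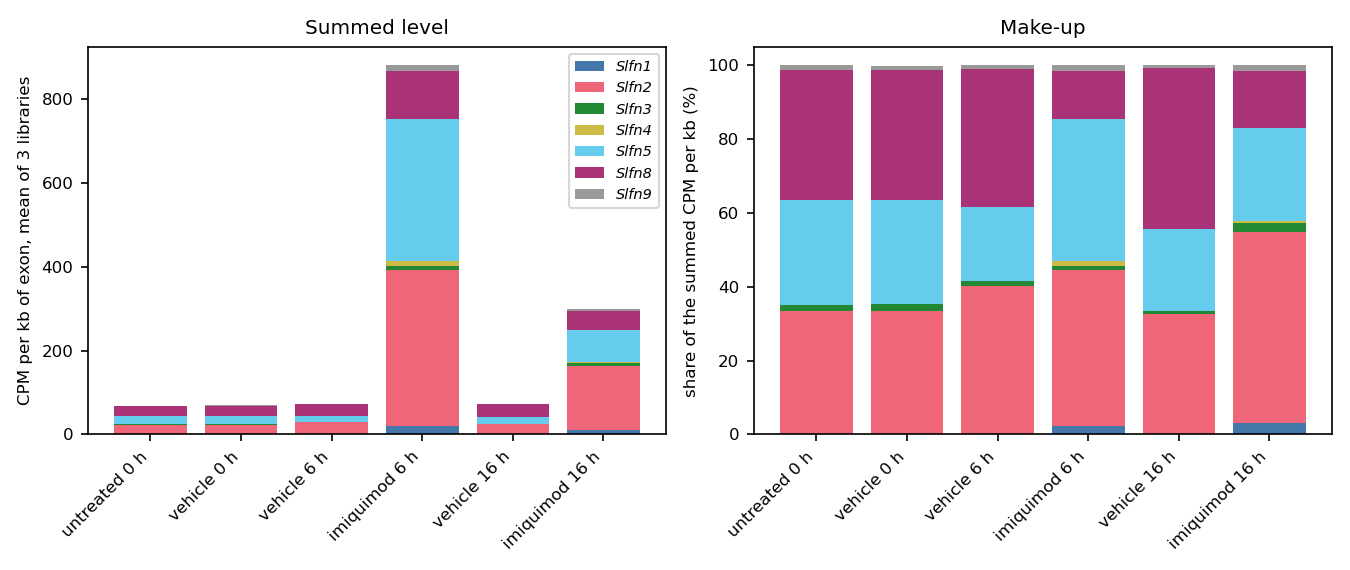
Summed level of the 7 members per kb of exon (left, y axis in CPM per kb) and the share of each member in the sum (right, y axis in percent), as means of 3 libraries in each of the 6 groups (x axis). The sum is 881 CPM per kb with imiquimod at 6 h and 299 at 16 h, and the share of Slfn8 is smaller in both imiquimod groups than in the vehicle.

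For each member the 3 genes with the most similar course over the 6 groups were found, as the smallest root mean square difference between centred mean log2 CPM, among 8428 tested genes with a mean of at least 10 CPM. The measure rests on 6 group means shared by all genes and is given with no p. Slfn8 had the closest matches, Frmd4a (0.05 on the log2 scale), Sp100 (0.06), the gene of a nuclear body protein, and Rab29 (0.07). For Slfn2 they were the mitochondrial glutamate carrier gene Slc25a22 (0.15), the autophagy receptor gene Optn (0.17) and Dhx58 (0.21), which encodes the RNA helicase LGP2. Slfn3 was closest to Tspoap1 (0.21), to the MAP kinase phosphatase gene Dusp1 (0.24) and to the NF-kappaB inhibitor gene Nfkbia (0.25). Outside the family, Slfn5 was closest to the orphan nuclear receptor gene Nr4a3 (0.19), to Ifi207 (0.19) and to Arhgap22 (0.19). Slfn9 was closest there to the inflammatory caspase gene Casp4 (0.18), to Nr4a3 (0.23) and to Sowahc (0.24). For Slfn1 and Slfn4 the values in groups at 0 are set by the prior count of 2, so their distances depend on that choice. Their nearest genes by this measure were the nucleic acid sensor gene Zbp1 (0.23), Cd8a (0.28) and the lymphotoxin gene Lta (0.30) for Slfn1, and Ifi204 (0.28), Ifit2 (0.31) and Ifi213 (0.35) for Slfn4. Within the family the closest pair was Slfn5 and Slfn9 (0.185) and the farthest Slfn1 and Slfn8 (2.68). Slfn5 was thus nearer to Slfn9 than to Nr4a3 (0.189). Slfn1 and Slfn4 were 0.51 apart. The distances of these 2 members also depend on the prior count.

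Of the other genes with Schlafen names, Slfn10-ps, a transcribed pseudogene between Slfn8 and Slfn2, went from 3.16 ± 0.48 CPM in the vehicle to 48.2 ± 2.03 CPM with imiquimod at 6 h (SD, n = 3; log2 3.93, edgeR adjusted p = 1.2e-48). At 16 h it had 2.79 ± 0.42 and 33.1 ± 1.84 CPM (SD, n = 3; log2 3.56, adjusted p = 1.22e-42). It shares 11.5% of its 75-nt windows with Slfn8 and Slfn9. Slfn14 had at most 2 counts in any library and Slfnl1 at most 9. Gm11425, the other tested non-member inside the cluster, was also called higher at both times (log2 3.995 and 3.03). Within 500 kb of the cluster on either side, 23 other genes were tested outside it. Of these 13 were called higher and 5 lower at 6 h, and 13 higher and 7 lower at 16 h. The shares over all genes were 37.7% higher and 39.2% lower at 6 h, and 39.1% and 38.1% at 16 h. On the side of Slfn3 the genes tested include the chemokine genes Ccl3, Ccl4 and Ccl5, with log2 changes of 9.52, 8.08 and 6.18 at 6 h. Mmp28, a matrix metalloproteinase gene, had -2.27. Heatr9 had 5.06. On the side of Slfn5, where 7 genes were tested, the log2 changes at 6 h ran from -2.51 for Cct6b to 1.01 for Nle1.

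**Figure D5:**
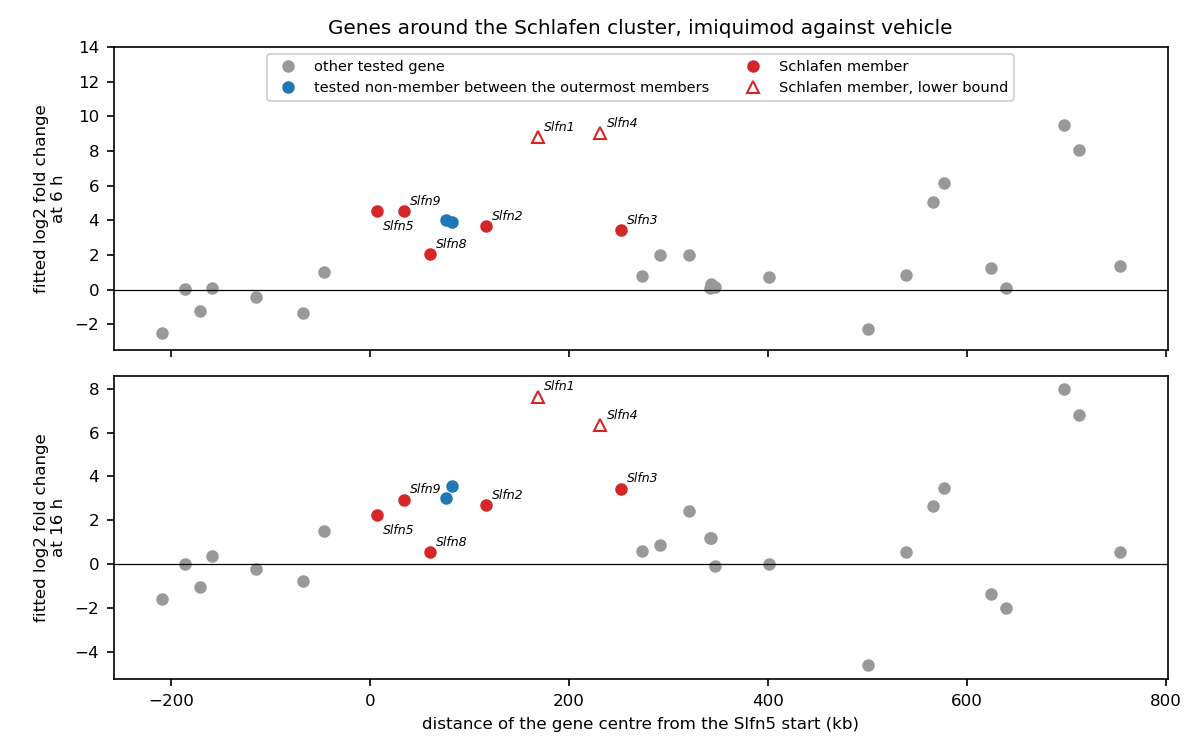
Log2 fold change with imiquimod against the vehicle (y axis) for the tested genes around the cluster, by the distance of the gene's centre from the start of Slfn5 in kb (x axis), at 6 h (top) and 16 h (bottom). Triangles are lower bounds. The 7 members are all above 0 at both times, and the pair of points above 6 at the far right is Ccl3 and Ccl4.

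The interferon pathway, which is known to drive Schlafen genes, was read by role from a list of 46 genes, of which 27 were tested. At 6 h 21 of 27 rose and 4 fell, with a median log2 change of 0.97 against -0.04 over all genes. At 16 h 16 rose and 8 fell, with a median of 0.22 against -0.00. Of all genes 37.7% were called higher and 39.2% lower at 6 h, and 39.1% and 38.1% at 16 h. These shares are the background of the counts by role too. Of the 20 ligand genes only Ifng, the gene of interferon gamma, was tested. It had 1 count in the vehicle and 43 with imiquimod at 6 h, and 0 and 195 at 16 h. The type I and III ligand genes together had 49 counts with imiquimod at 6 h, 18 at 16 h and at most 7 in any other group. Among 6 receptor genes Ifngr2 (log2 1.14) and Ifnar1 (0.25) rose at 6 h and Ifngr1 (-2.55) and Ifnar2 (-0.81) fell. At 16 h only Ifngr2 (0.85) rose and 4 fell, Ifnar1 (-0.55) now among them.

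Of the factors downstream of the receptors, the kinase genes Jak1, Jak2 and Tyk2 rose at 6 h by 0.97, 1.61 and 0.51 on the log2 scale. At 16 h Jak1 (0.15) and Jak2 (0.14) rose and Tyk2 (-0.44) fell. Of 9 transcription factor genes 7 rose at 6 h, Irf7 (5.03) and Stat2 (2.51) among them, and Irf8 (-0.32) and Irf3 (-0.15) fell. At 16 h 5 rose and 2 fell, with Irf7 at 3.36 and Stat2 at 1.37. All 8 inhibitor genes rose at 6 h, led by Socs3 (5.75) and Usp18 (5.70), and at 16 h 7 rose and Ptpn1 (-0.09) fell. Scaled by library totals, the interferon list had 16 rises and 8 falls at 6 h, since this scaling moves the median of all genes by -0.35, and the signs of Ifnar1, Irf2, Ptpn1, Ptpn6, Ptpn11 and the uncalled Ifnlr1 turned.

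The genes that restrict viral RNA by binding, editing or cutting it, the functional neighbours of Schlafen proteins, rose almost as a whole. Beside 37.7% of all genes called higher and 39.2% lower at 6 h, 28 of 29 tested genes of this list rose and 1 fell, with a median of 3.61. Beside 39.1% and 38.1% at 16 h, 26 rose and 2 fell, with a median of 2.86. The largest rises at 6 h were those of the oligoadenylate synthetase-like gene Oasl1 (8.77) and of Ifit1 (8.32) and Ifit3 (7.78), whose proteins bind viral RNA. At 16 h they were those of Oasl1 (8.10), Oas1g (363 counts against 1) and Ifit1 (7.28). Cnp fell at 16 h by 0.54, and Zcchc2 had 0.05 (edgeR adjusted p = 0.388).

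The list of quiescence and proliferation control, chosen because Slfn2 acts there, did not move as 1 group. At 6 h 7 of 20 rose and 11 fell (median -0.31), and at 16 h 7 rose and 10 fell (median -0.26). Over all genes 37.7% were called higher and 39.2% lower at 6 h, and 39.1% and 38.1% at 16 h. The share that rose was near the background. The share that fell was above it at both times, in a list of only 20 genes. Ccnd2, the gene of cyclin D2, rose by 6.62 at 6 h and 5.88 at 16 h, and Myc by 4.31 and 5.05. Klf4, a gene tied to cell cycle exit, fell by 3.73 and 4.20. For tRNA cleavage and protection, a process in which Schlafen proteins are known to act, 9 genes were tested. Of these 5 rose and 3 fell at 6 h (median 0.30) and 4 rose and 2 fell at 16 h (median 0.06). The same shares over all genes, 37.7% higher and 39.2% lower at 6 h and 39.1% and 38.1% at 16 h, are the background of these counts, which rest on 9 genes. The largest changes were those of Rnaset2b, an RNase T2 gene (-2.14 at 6 h and -1.85 at 16 h), Angel1 (-0.72 at 6 h), the ribonuclease inhibitor gene Rnh1 (0.67 at 6 h), and at 16 h the tRNA methyltransferase gene Nsun2 (1.24) and the tRNA-processing gene Elac2 (0.84). By library totals 3 rose and 3 fell at 6 h, with a median of -0.05.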

How the data were processed

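For 54532 genes in 18 libraries the authors deposited unnormalized whole-number counts. The submitters' processing notes name STAR and mm10. Their versions, the counting program and the strand setting are not given in the sources used here. The members and lists were chosen with earlier results of these data known. Counts were fitted for all 6 groups in edgeR 4.0.16 (R 4.3.3, limma 3.58.1): filterByExpr with a minimum count of 10, TMM scaling, robust quasi-likelihood F test, Benjamini-Hochberg threshold 0.05. The fit was tested on simulated data in which few genes changed and none of these was set to 0 counts in a group. That setting does not cover Slfn1 and Slfn4 against the vehicle. SEs and 95% intervals are Wald values from the fitted model and do not cover the choice of scaling. Where a group had 0 counts, folds are against a floor of 3 counts over the group. Floors and intervals on counts cover counting error only. Of the identifiers 97.6% were found in GENCODE M21, which gave lengths and coordinates. The named genes are the 7 members, the 3 genes of most similar course for each member, and the 3 called genes of largest absolute change per list and comparison with those uncalled or opposed to the rest where they were 5 or fewer. Named outside this rule, after their values were seen, were further interferon pathway genes and the genes around the cluster. Alternatives were DESeq2 size factors, library totals, a replicate block, no filter, 1 CPM or more in at least 3 libraries, only the groups compared, no rRNA genes, each library left out, DESeq2 1.42.0 and the longest transcript as length. Some genes of the lists are counted but not reported by name here.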

Additional observations from a re-analysis of the deposited data

Results flagged for a closer look

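The imiquimod effect differed between 16 h and 6 h, by a test of the difference itself, in 4 members. The difference on the log2 scale, 16 h minus 6 h, was -0.97 for Slfn2, -2.30 for Slfn5, -1.53 for Slfn8 and -1.59 for Slfn9. In each the 6 h effect was the larger, and all 4 kept their call under every alternative run.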

How the results depend on the processing

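The counts of members called with imiquimod kept their value in all alternatives run: 7 of 7 higher at 6 h and at 16 h, 7 of 7 lower from 6 h to 16 h, and 4 of 7 with a smaller effect at 16 h. Members called lower in the vehicle at 6 h numbered 3, and from 1 to 3 with single libraries left out. The value of 1 came without vehicle replicate 1 of 0 h and without vehicle replicate 1 of 6 h. No member reversed its direction in a called comparison. Slfn3 in the vehicle at 6 h also lost its call with no filter (adjusted p = 0.0842), with only the groups compared (0.0581) and in DESeq2 (0.0759), and Slfn5 in the vehicle at 16 h with only the groups compared (0.131). Slfn1, with 3 counts in the vehicle at 0 h, was called lower at 6 h and 16 h without the library of these that had 0 counts (adjusted p = 0.0434 and 0.0476). Over all genes, library totals in place of TMM moved the share of rises among calls from 49.0% to 31.1% at 6 h, from 50.1% to 75.5% in the difference and from 50.04% to 74.6% from 6 h to 16 h in imiquimod, with rises of 5602 and 3704, 4246 and 6951, and 4739 and 7786, and falls of 4222 and 2257 in the difference and 4732 and 2655 from 6 h to 16 h. Pairing by replicate number was not seen: deviations of same-numbered libraries correlated with a median of 0.0027 over 45 pairs of libraries, and 6 pairs exceeded 0.1. For libraries of other numbers the median was 0.00059 over 90 pairs, and 17 exceeded 0.1. With 3 libraries per group this cannot exclude that libraries were paired. With the replicate block the counts of members called were the same, 7 at 6 h, 7 at 16 h, 7 from 6 h to 16 h and 4 in the difference, and in the vehicle 2 higher and 3 lower at 6 h. Depth limits Slfn1 and Slfn4 in the vehicle, where only bounds can be given, and Slfn3 and Slfn9, with at most 65 counts in a library without imiquimod.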
